A study of Mus musculus with 8 samples.

Results

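The transcription factors GATA1, GATA2 and GATA3 and the GATA cofactor FOG1 (gene Zfpm1) were followed through chromatin accessibility in long-term haematopoietic stem cells (HSC) that had been sorted from mouse bone marrow. Overlapping ATAC-seq peaks of 8 libraries were merged into regions, and the regions whose midpoint lay inside one of the 4 genes or within 100 kb of it were kept. This gave 93 of 90736 regions, with 12 at Gata1, 26 at Gata2, 20 at Gata3 and 35 at Zfpm1. In ATAC-seq a transposase inserts adapters into open chromatin, and accessible DNA gives piles of fragments. The study asked what Bcl11a, a zinc-finger repressor gene, does inside HSC and how its overexpression acts on wild-type HSC in the same mouse. All mice carried Vav1-cre, a recombinase driven by the promoter of a gene active across blood cells and not in HSC alone, and an iMOS Bcl11a allele named WT or MUT. From each genotype populations called T1 and T2 were sorted at 2 to 3 months of age (3 months in the design text). The 4 groups MUT T1, MUT T2, WT T1 and WT T2 held 2 libraries each. What separates T1 from T2 and what the MUT allele changes are not given in the sources used here. Nothing in the labels says that the 2 libraries of a group came from separate animals, so the p-values below measure only the spread between libraries, which may be technical.

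GATA factors are zinc-finger proteins that bind the DNA sequence GATA. GATA2 is needed for HSC to arise and to be maintained, GATA1 drives erythroid and megakaryocytic differentiation, and GATA3 drives T cell development and is also made in HSC. As cells enter the erythroid lineage GATA1 displaces GATA2 from shared sites, an exchange called the GATA switch, and FOG1 is the cofactor that binds GATA1 and takes part in it.

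The values below are the fold enrichment that the authors' peak caller gave each peak, a ratio of the fragment pileup at the summit to the local background. A region missing from a list may still be accessible below the caller's threshold. The libraries were not equally deep. The genome background of the peak caller, a measure of depth recovered from the deposited values, was 3.10 to 3.38 fragments per position in 5 libraries. It was 2.03 in MUT T1 replicate 2 and 2.45 and 1.89 in the WT T2 libraries, so that 3 libraries stood apart as shallow. The lists held 62232 to 74785 peaks. Of 10 HSC marker genes, 9 had an open end in all 8 libraries, all but Ly6a, and 64.9% of all protein-coding genes had one. The other marker lists were open at 2 to 3 of 5 genes per library for B cells and for T cells, 1 to 2 of 5 for granulocytes and monocytes, 3 of 5 for erythroid cells and 4 of 5 for megakaryocytes and for endothelium and stroma. Rag1, Cd3e, Cd8a, Elane, S100a8, Ly6g, Hba-a1, Hbb-b1, Ppbp and Cdh5 were open in no library.

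The start sites of the 4 genes differed in accessibility. Gata2 has 2 start sites in the promoter table, and the distal one was called in all 8 libraries and the proximal one in 7. The Zfpm1 start was called in all 8, the Gata3 start in 6 and the Gata1 start in none. The 300 bases from 250 before the start to 50 after it (RefSeq sequences, GRCm38.p6, the build called mm10) are shown for the start without a call, for the HSC gene Gata2 and for Gata3, whose window alone held a GATA motif. They are written 5′ to 3′ on the strand of the gene, and capitals mark CG dinucleotides.
Gata1, X:7967861-7968160, minus strand: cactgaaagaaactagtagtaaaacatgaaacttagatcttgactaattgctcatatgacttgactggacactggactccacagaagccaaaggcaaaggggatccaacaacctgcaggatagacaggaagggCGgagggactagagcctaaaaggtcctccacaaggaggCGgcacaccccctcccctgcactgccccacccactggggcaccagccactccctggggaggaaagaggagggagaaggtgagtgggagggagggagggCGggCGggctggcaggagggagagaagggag
Gata2 distal start, 6:88193641-88193940, plus strand: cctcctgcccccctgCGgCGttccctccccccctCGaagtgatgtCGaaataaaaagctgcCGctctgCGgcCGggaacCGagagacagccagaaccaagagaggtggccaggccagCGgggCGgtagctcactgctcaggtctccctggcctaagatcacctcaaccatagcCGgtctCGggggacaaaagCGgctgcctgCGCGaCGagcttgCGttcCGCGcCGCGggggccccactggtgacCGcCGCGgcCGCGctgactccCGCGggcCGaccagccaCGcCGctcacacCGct
Gata3, 2:9878551-9878850, minus strand: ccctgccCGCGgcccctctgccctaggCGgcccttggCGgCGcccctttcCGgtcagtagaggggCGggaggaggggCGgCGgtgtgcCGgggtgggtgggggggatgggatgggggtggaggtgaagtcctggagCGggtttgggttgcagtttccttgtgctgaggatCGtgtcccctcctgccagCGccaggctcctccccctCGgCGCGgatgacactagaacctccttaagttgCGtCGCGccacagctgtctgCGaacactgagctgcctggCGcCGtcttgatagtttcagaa

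The Gata1 window held 4 CG dinucleotides, against 32 in the distal Gata2 window, 29 in the proximal Gata2 window, 22 in the Gata3 window and 37 in the Zfpm1 window. Its GC content was 57.3%, below the 67.3% to 73.7% of the other windows. Among 32619 promoter windows of the same length, 47.0% were touched by a called region in all 8 libraries and 49.6% in none. The share called in every library was 7.67% (943 of 12291) among windows with no more CG dinucleotides than Gata1, and 95.6% (7254 of 7587) among windows with at least as many as Gata3. In no library were 89.0% and 2.52% of these windows touched. The Gata1 window, touched in none, and the distal Gata2 and Zfpm1 windows, touched in all 8, thus had the call status of most windows of like CG number. The proximal Gata2 window, touched in 7 libraries, and the Gata3 window, touched in 6, did not. By GC content the Gata1 window differed from most. Of windows with 55 to 65% GC, 71.7% (5912 of 8241) were touched in all 8 libraries. The GATA motif (GATA after A or T and before A or G) was searched on both strands. One match was found in the member windows, TGATAG in Gata3 from base 36 to base 41 after the start. Of all windows, 29.6% held such a motif. The ETS motifs AGGAAG and CGGAAG matched in Gata1 (bases −125 to −120) and Zfpm1 (bases −192 to −187), where 46.3% of all windows held one. The RUNX motif TGTGGT matched in no member window and in 16.6% of all windows.

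Most of the accessible regions at the 4 loci were shared by all groups. Of the 93 regions, 60 (64.5%) were called in all 8 libraries, 27 (29.0%) in 2 to 7 and 6 (6.45%) in 1. Over all regions these shares were 54.6%, 33.8% and 11.6%. The midpoint lay inside a member gene for 22 of the 93, and the nearest protein-coding gene was a member for 37. Each library called 68 to 83 of the 93. The lowest numbers, 68 and 72, were in WT T2 replicate 2 and MUT T1 replicate 2, which were also the shallowest libraries. Of the 33 regions not called everywhere, 13 (39.4%) were called in deep libraries only, and over all regions 38.4% were.

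**Figure D1:**
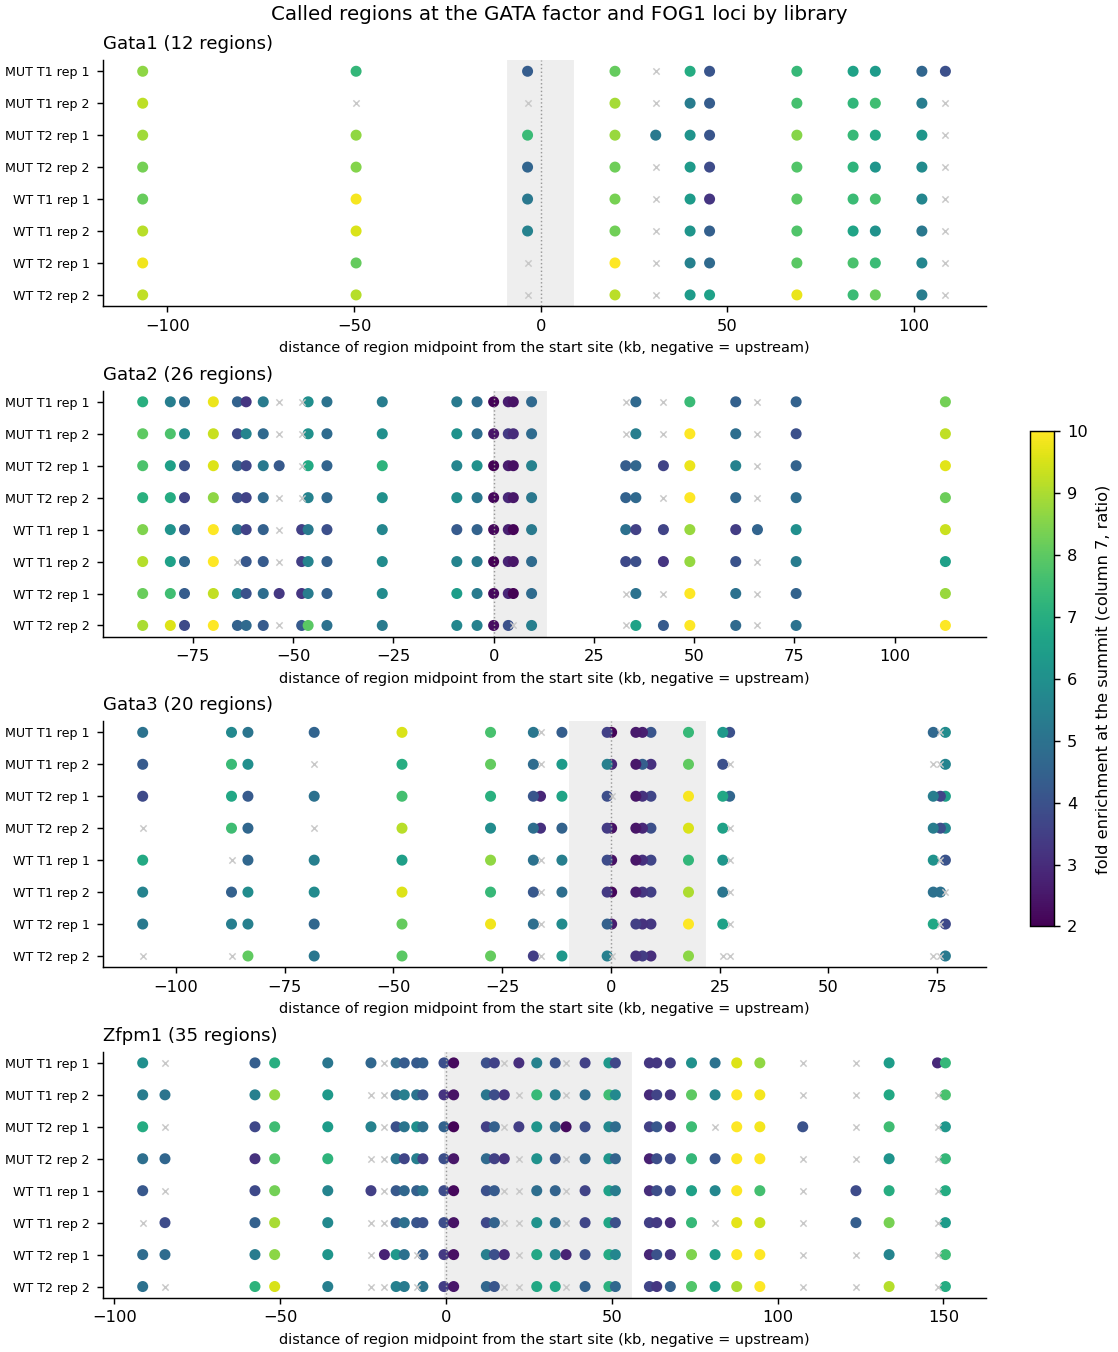
Called regions at Gata1, Gata2, Gata3 and Zfpm1 by library. The x axis is the distance of a region's midpoint from the first start site in kb (negative is upstream), grey shading is the gene span, filled circles are calls coloured by fold enrichment (a ratio; values above 10 share the last colour) and grey crosses are libraries without a call. Circles line up in most columns, which are the 60 regions called in all 8 libraries.

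**Figure D2:**
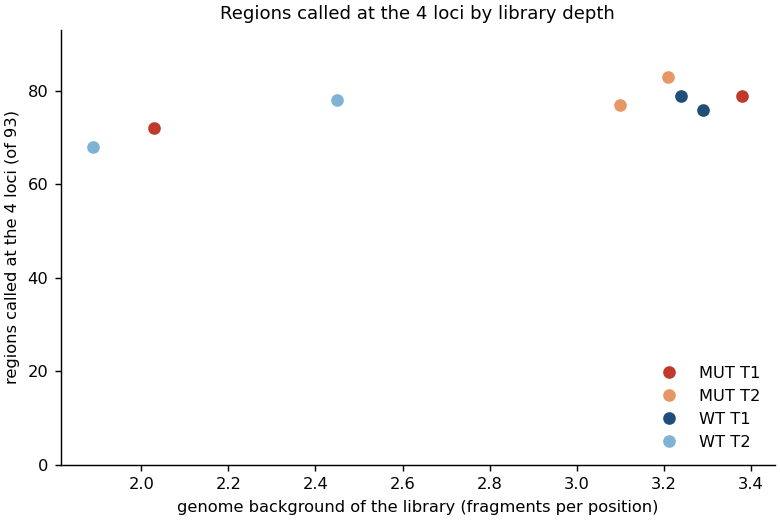
Number of the 93 regions called in a library (y axis) against its genome background in fragments per position (x axis), 1 point per library, coloured by group. The library with the lowest background called 68 and the highest number was 83, in MUT T2 replicate 1.

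The loci differed in how densely they held shared regions. Gata2 had 19 regions called in all 8 libraries (8.91 per 100 kb) and Zfpm1 had 23 (8.98 per 100 kb). These densities lay at percentiles 96.2 and 96.4 of all protein-coding genes. Gata1 had 8 (3.68 per 100 kb, percentile 51.5) and Gata3 had 10 (4.33 per 100 kb, percentile 60.1), near the median gene at 3.54 per 100 kb. At Gata3, 10 of 20 regions were thus not called everywhere, the largest share of the 4 loci. The median of the mean fold enrichment of shared regions was 5.12 at the 4 loci and 7.71 over all shared regions.

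Gata2, the GATA factor of the HSC, lies on 6:88193891-88207032 on the plus strand. Distances are given from its distal start. The intronic enhancer known as +9.5, which is needed for Gata2 expression in emerging HSC, lay in a region on 6:88202987-88203737 that was called in every library. Its fold enrichment was 5.26 and 4.78 in WT T1, 4.69 and 4.78 in MUT T1, 4.78 and 5.43 in WT T2 and 5.54 and 5.19 in MUT T2. Both MUT T1 libraries were below both MUT T2 libraries, a difference of −0.17 on the log2 scale that did not pass the threshold (SE 0.14, limma adjusted p = 0.999). The genotypes overlapped, and the mean was 5.05 ± 0.39 over MUT and 5.06 ± 0.33 over WT (SD, n = 4 libraries each). The pileup at the summit was 96 to 163 fragments over a local background of 19.1 to 29.8, and the summits of all libraries fell within 115 bp. The ratio placed it at percentiles 9.11 to 19.4 of the regions called in all 8 libraries. A low ratio thus stood on a high pileup and a high surrounding background at this enhancer. The limma test on quantile-normalized log2 ratios gave a MUT minus WT difference of 0.03 (SE 0.10, Benjamini-Hochberg adjusted p = 0.989). The T1 minus T2 difference was −0.03 (SE 0.10, limma adjusted p = 0.994), and neither was larger than the spread between libraries.

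The enhancer known as −77, a distal element that keeps Gata2 active in myelo-erythroid progenitors, lay in a region on 6:88116406-88117283 that all 8 libraries called. Its fold enrichment was 4.03 and 4.67 in WT T1, 4.84 and 5.81 in MUT T1, 4.34 and 3.81 in WT T2 and 3.95 and 3.61 in MUT T2. The MUT T1 libraries were the highest, and the T1 and T2 libraries overlapped through the WT groups. The mean was 4.84 ± 0.74 in T1 and 3.93 ± 0.31 in T2 libraries (SD, n = 4 each). The pileup was 26 to 52 fragments over a background of 6.09 to 9.95. The T1 minus T2 difference was 0.37 on the log2 scale (SE 0.10, unadjusted p = 0.00341), which did not pass the threshold of 0.05 after Benjamini-Hochberg adjustment over all 49577 shared regions (limma adjusted p = 0.856). Over the alternatives its adjusted p ranged from 0.500 to 1.0 and the difference from 0.292 to 0.433. Between MUT T1 and MUT T2 the difference was 0.50 (SE 0.15, limma adjusted p = 0.999). Between all MUT and all WT libraries it was 0.13 (SE 0.10, limma adjusted p = 0.911).

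Other known Gata2 sites were less evenly covered. The point −3.9 kb, one of the GATA switch sites upstream of the gene, lay in the −4.1 kb region (6:88189422-88190117), called in all 8 libraries with ratios of 4.51 to 6.02. No called region covered the switch sites −1.8 kb and −2.8 kb, and the nearest midpoints were 1.81 and 1.32 kb away. The distal start (6:88193547-88194255) had ratios of 1.84 to 2.45, with pileups of 63 to 89 fragments over a background of 26.6 to 41.4. That background was about the level of the summit pileup at weaker distal regions, such as the −77 kb region. The proximal start (6:88198591-88199009) had ratios of 2.02 to 2.98 and was not called in WT T2 replicate 2. The region between the starts at +3.7 kb had ratios of 2.62 to 3.97. The highest ratios of the locus lay outside the gene, at −69.9 kb (mean 9.85 ± 0.87, SD, n = 8), +48.9 kb (9.85 ± 1.5) and +112.6 kb inside Eefsec (8.97 ± 1.5).

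**Figure D3:**
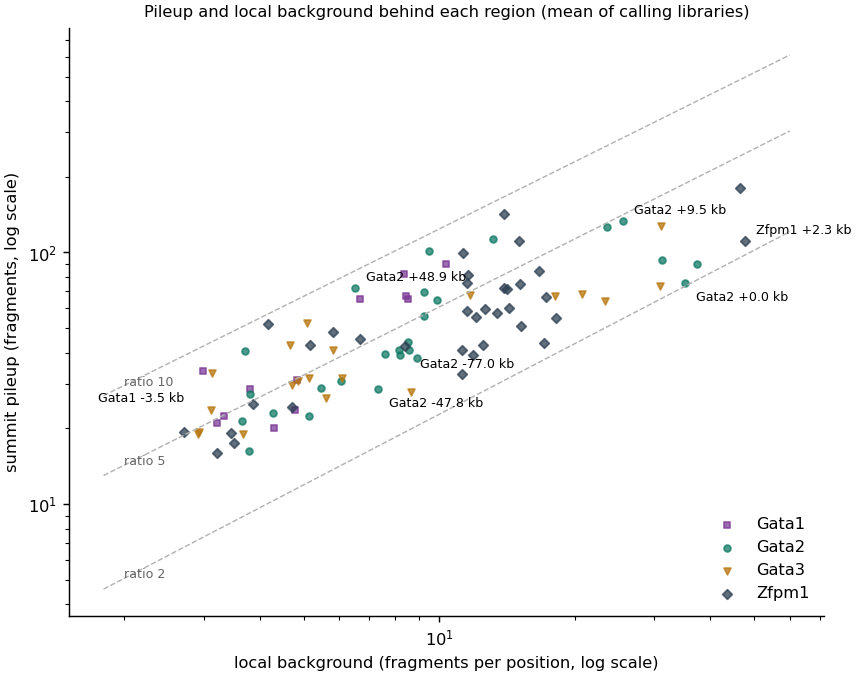
Mean summit pileup (y axis, fragments, log scale) against mean local background (x axis, fragments per position, log scale) for the 93 regions, coloured by locus, with dashed lines at ratios of 2, 5 and 10. The start site of Gata2 (labelled +0.0 kb) and the +9.5 kb enhancer sit far to the right, with mean backgrounds of 35.1 and 25.6.

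**Figure D4:**
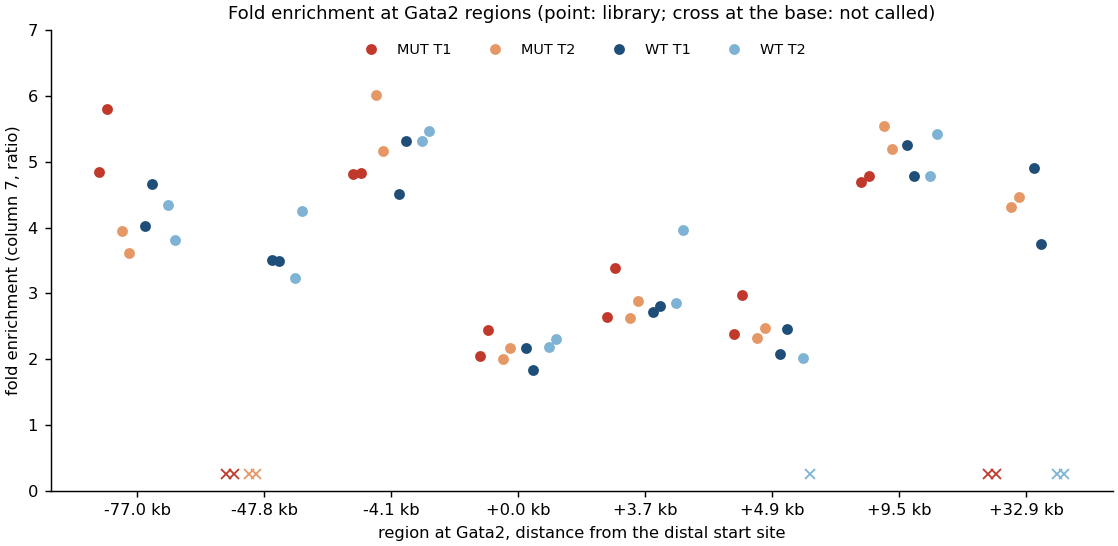
Fold enrichment (y axis, ratio) at 8 Gata2 regions by library (point, coloured by group), with crosses at the base for libraries without a call. The +9.5 kb points lie between 4.69 and 5.54 in all groups, and the −47.8 kb points are WT libraries only.

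Some further Gata2 regions were called by group. The −47.8 kb region (6:88145828-88146274) was called in all 4 WT libraries and in no MUT library. Its ratios were 3.24 and 4.25 in WT T2 and 3.51 and 3.49 in WT T1, with pileups of 24 to 33 fragments and −log10 q-values of 5.35 to 8.47. The caller's lowest −log10 q-value was 3.00, so these were weak peaks. With the same number of peaks taken from every list, 62232, the region was called in WT T2 replicate 2 only. The +32.9 kb region (6:88226596-88227077) had ratios of 4.32 and 4.47 in MUT T2 and 4.91 and 3.75 in WT T1, and was not called in MUT T1 or WT T2. None of the 3 shallow libraries called it, and neither did the deep MUT T1 replicate 1. With equal numbers of peaks both MUT T2 libraries and WT T1 replicate 1 called it. The part of depth in this pattern was not tested. The +42.3 kb region (6:88235928-88236510) had ratios of 3.61 in MUT T2 replicate 1, 3.60 and 3.24 in WT T1 and 4.26 in WT T2 replicate 2.

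Gata1, the erythroid and megakaryocytic GATA factor, spans X:7959260-7976663 on the minus strand and had 1 region inside it. This region lay −3.5 kb from the start site (X:7971093-7971754), in the upstream stretch where an enhancer of Gata1 is known. Its fold enrichment was 5.19 and 5.50 in WT T1, 4.33 in MUT T1 replicate 1 and 7.41 and 4.58 in MUT T2. All 5 deep libraries called it and none of the 3 shallow ones did. The pileups were 18 to 31 fragments over backgrounds of 3.15 to 3.55, with −log10 q-values of 6.51 to 17.9. MUT T2 and WT T1 therefore differed from WT T2 in this call, and depth and group cannot be told apart for WT T2, whose libraries were both shallow. With equal numbers of peaks it was called in MUT T2 replicate 1 and both WT T1 libraries.

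The other 11 regions at the Gata1 locus lay at neighbouring genes. The highest were at Suv39h1, a histone methyltransferase gene (−106.6 kb, mean 8.93 ± 0.56, SD, n = 8), at Glod5 (−49.5 kb) and at Hdac6, a deacetylase gene (+19.9 kb, 8.73 ± 0.65, SD, n = 8). The Glod5 region had ratios of 9.90 and 9.55 in WT T1, 8.12 and 9.11 in WT T2, 7.30 in MUT T1 replicate 1 and 8.67 and 8.53 in MUT T2. It was not called in MUT T1 replicate 2 (genome background 2.03), while the shallower WT T2 replicate 2 (1.89) called it. The part of depth in this missing call was not tested. The libraries that called it did so with −log10 q-values of at least 17.3.

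Gata3 spans 2:9857078-9887953 on the minus strand. Its strongest region lay inside the gene at +17.8 kb (2:9860043-9861490), with fold enrichments of 7.28 and 9.02 in WT T1, 7.37 and 8.05 in MUT T1, 10.44 and 8.61 in WT T2 and 9.91 and 9.55 in MUT T2. All groups called it and the WT and MUT libraries overlapped. Both MUT T1 libraries were below both MUT T2 libraries, a difference of −0.33 on the log2 scale (SE 0.15, limma adjusted p = 0.999). Its summits lay within 24 bp, and the pileup was 31 to 75 fragments over a background of 2.97 to 7.42. The mean was 7.93 ± 0.8 in T1 and 9.63 ± 0.77 in T2 libraries (SD, n = 4 each). The T1 minus T2 difference was −0.19 on the log2 scale (SE 0.10, limma adjusted p = 0.918), which did not pass the threshold. The start site region (2:9878212-9878675) had ratios of 2.37 and 2.10 in WT T1, 2.08 and 2.87 in MUT T1, 2.60 in WT T2 replicate 1 and 2.34 in MUT T2 replicate 2. The region beside it at −0.9 kb (2:9878951-9879996) was called in all 8 with ratios of 3.34 to 5.46. The 2 libraries that lacked the start site region were MUT T2 replicate 1, a deep one, and WT T2 replicate 2, the shallowest.

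Next in height at Gata3 were −48.0 kb (mean 8.17 ± 1.16, SD, n = 8), inside Taf3, and −27.7 kb (7.83 ± 1.17). Both MUT T2 libraries called −16.2 kb (2:9894620-9894955, ratios 2.87 and 3.12), and no other library did. The +75.7 kb region (2:9802558-9803145) was called in both MUT T2 libraries (3.63 and 3.95) and in WT T1 replicate 2 (4.96). These were low peaks, with pileups of 23 to 30 fragments.

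Zfpm1, the gene of the cofactor FOG1, spans 8:122281856-122337862 on the plus strand and had 11 regions inside it. Its promoter region (8:122280909-122282237) was called everywhere, with fold enrichments of 3.84 and 3.89 in WT T1, 3.94 and 3.20 in MUT T1, 3.35 and 3.44 in WT T2 and 4.48 and 3.92 in MUT T2. The summit pileup was 110 to 245 fragments, over backgrounds of 33.7 to 54.5. In the T2 populations both MUT libraries were above both WT libraries, a difference of 0.39 on the log2 scale (SE 0.16) that did not pass the threshold (limma adjusted p = 0.650). The highest ratios lay beyond the 3′ end, at +87.7 kb (mean 10.16 ± 0.72, SD, n = 8) and +94.7 kb (9.75 ± 1.35), and at −51.6 kb inside Zfp469 (8.32 ± 0.81).

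The −8.8 kb region of Zfpm1 (8:122273108-122273601) was a firm peak in 6 libraries and was missing from both WT T2 libraries. Its ratios were 4.43 and 4.10 in WT T1, 4.28 and 5.05 in MUT T1 and 5.95 and 5.42 in MUT T2. Pileups were 64 to 109 fragments, with −log10 q-values of 22.4 to 46.2. MUT T1 replicate 2 (genome background 2.03) called it with 64 fragments, while WT T2 replicate 1 (genome background 2.45) did not. Both WT T2 libraries were shallow, and the part of depth in this pattern was not tested. With equal numbers of peaks the same 6 libraries called it. The neighbouring region at −6.9 kb was called in all 8 libraries, WT T2 included (4.39 and 5.12). The +123.6 kb region inside Zc3h18 (8:122405431-122406112) was called in the WT T1 libraries only, with ratios of 3.84 and 4.35 and pileups of 16 and 19.

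The −57.5 kb region of Zfpm1, inside Zfp469 (8:122224076-122225112), had the lowest unadjusted p of the 60 shared regions at the 4 loci, and it was picked after the values were seen. Its fold enrichment was 3.78 and 4.45 in WT T1, 4.37 and 5.45 in MUT T1, 5.34 and 7.16 in WT T2 and 3.73 and 3.13 in MUT T2. The MUT T2 libraries were the lowest and WT T2 replicate 2 the highest. The pileups were near level at 19 to 29 fragments, while the local background ran from 2.67 to 6.34 and was lowest in the shallow libraries. The MUT T2 minus WT T2 difference was −0.75 on the log2 scale (SE 0.17), with an unadjusted p of 0.000652 and a limma adjusted p = 0.510. The genotype difference in T1 minus that in T2 was 0.96 (SE 0.23, limma adjusted p = 0.679), and neither passed the threshold. The summits were spread over 968 bp, so the peaks merged here may not share a summit.

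Across the comparisons, few of the 93 regions were called in every library of one group and in none of the other. A region called in the first group only is named gained, and one called in the second only is named lost. In MUT T1 against WT T1 none was gained, where 1.26% of all regions were. In that comparison 4 were lost (4.3% of the 93), where 2.13% of all regions were. The 4 lost regions were Gata2 −47.8 kb, +32.9 kb and +42.3 kb and Zfpm1 +123.6 kb. In MUT T2 against WT T2, 5 were gained (all regions 3.95%) and 1 was lost (1.08% of the 93, all regions 0.457%). The gained regions were Gata1 −3.5 kb, Gata2 +32.9 kb, Gata3 −16.2 kb and +75.7 kb and Zfpm1 −8.8 kb, and the lost one was Gata2 −47.8 kb. As a share of the 93, the gains came to 5.38%, and both WT T2 libraries were shallow. With equal numbers of peaks the split was 3 gained and 3 lost in T1 (all regions 1.82% and 1.76%) and 3 gained and 5 lost in T2 (all regions 1.95% and 1.65%). The direction of the counts between genotypes therefore moved with the number of peaks used.

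Between populations, MUT T1 against MUT T2 gave no gain (all regions 0.641%) and 3 losses (3.23% of the 93, all regions 1.74%). The losses were at Gata2 +32.9 kb and at Gata3 −16.2 kb and +75.7 kb. WT T1 against WT T2 gave 4 gains (4.3% of the 93, all regions 3.9%) and no loss (all regions 0.632%). The gains were at Gata1 −3.5 kb, Gata2 +32.9 kb and Zfpm1 −8.8 kb and +123.6 kb. With equal numbers of peaks these splits were 2 gained and 1 lost in MUT (all regions 1.13% and 1.21%) and 2 and 2 in WT (all regions 2.17% and 1.78%). The comparisons share groups, so the +32.9 kb region entered 4 of them. Over all libraries of a genotype the only call was the loss of Gata2 −47.8 kb in MUT, 1.08% of the 93 (all regions 0.0606% lost and 0.222% gained). It was gone with equal numbers of peaks. Over all libraries of a population there was no gain (all regions 0.0507%) and no loss (all regions 0.0265%). Each of these shares at the 4 loci rested on at most 5 regions.

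Of the 18 gain and loss calls, at 8 distinct regions, 5 were kept with equal numbers of peaks, 15 with a −log10 q-value of at least 5 and 18 with windows around summits. Both calls at Zfpm1 −8.8 kb were among those kept in each of these settings. With the 3 shallow libraries left out, 4 were gained and 4 lost in MUT T1 against WT T1 (all regions 5.85% and 3.18%), and 2 gained and 3 lost in MUT T1 against MUT T2 (all regions 4.65% and 2.86%). The deep MUT libraries against WT T1, the only deep WT group, gave no gain and 2 losses (all regions 1.31% and 0.894%). The deep T1 libraries against MUT T2, the only deep T2 group, gave no gain and 1 loss (all regions 0.746% and 0.782%). The shares of all regions rose too. WT T2 has no deep library, so its own comparisons could not be made this way. The pooled ones lacked it, so genotype and population were mixed in them. Leaving out a library loosens the rule, since 1 call then decides a group, and in the comparisons of 2 groups the shares of all regions gained and lost rose along with the counts at the 4 loci. In MUT T1 against WT T1, gains and losses together rose from 4 to 9 without MUT T1 replicate 1 (all regions 2.97% gained and 9.25% lost). They were 8 without MUT T1 replicate 2 (5.85% and 3.18%) and 9 without WT T1 replicate 1 (2.41% and 5.47%). As MUT T1 replicate 2 is the only shallow library in this comparison, the 8 are the deep-library counts given above.

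In MUT T2 against WT T2 they rose from 6 to 12 without MUT T2 replicate 2 (all regions 9.67% gained and 1.16% lost) and to 10 without WT T2 replicate 1 (9.4% and 1.69%). In MUT T1 against MUT T2 they rose from 3 to 6 without MUT T1 replicate 1 (2.07% and 8.55%). They were 5 without MUT T1 replicate 2 (4.65% and 2.86%), again the same as with deep libraries only. Without MUT T2 replicate 2 they were 10 (1.62% and 5.93%). In WT T1 against WT T2 they rose from 4 to 9 without WT T1 replicate 1 (8.33% and 1.41%), and were also 9 without WT T2 replicate 1 (9.43% and 2.02%) or WT T2 replicate 2 (6.42% and 3.27%).

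At the 60 regions called in all 8 libraries, the fold enrichment was compared on a log2 scale with limma after quantile normalization. None of the 60 passed the adjusted threshold of 0.05 in any of the 6 comparisons, and the lowest limma adjusted p was 0.510. Over all 49577 shared regions 5 passed, all higher in MUT than in WT over all libraries (0.0101%), and 0.0% in each other comparison. At an unadjusted p below 0.05, the numbers of the 60 were 2 in MUT T1 against WT T1 (all regions 6.23%), 9 in MUT T2 against WT T2 (7.42%) and 3 in MUT T1 against MUT T2 (4.28%). They were 5 in WT T1 against WT T2 (8.26%), 2 over all MUT against all WT (6.56%) and 1 over all T1 against all T2 (5.39%). The 9 regions in the T2 populations lay at all 4 loci, with 3 higher and 6 lower in MUT.

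**Figure D5:**
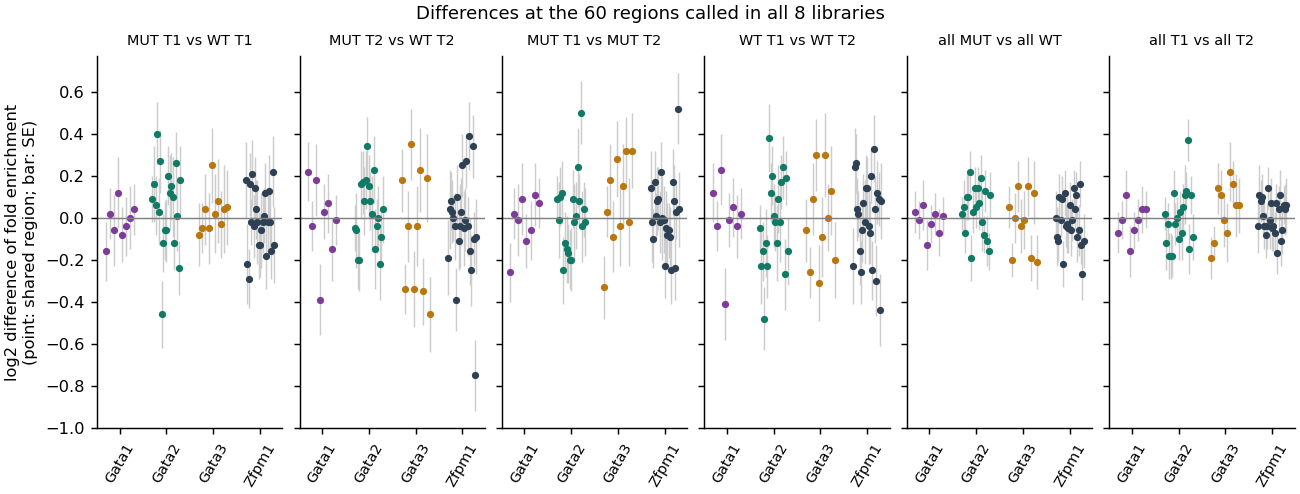
Log2 difference in fold enrichment (y axis, first group minus second) with its standard error (bars) at the 60 shared regions, by locus and comparison. Most points lie within 0.4 of 0, and the lowest is Zfpm1 −57.5 kb at −0.75 in MUT T2 against WT T2.

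The wider GATA network was counted by the same rule. Of 20 genes, 17 had a region called in all 8 libraries within 1 kb of an end of the RefSeq span, which need not be a start site in use, and 64.8% of all 21631 protein-coding genes had one. The 20 loci held 469 regions, 286 (61.0%) of them called in all 8. Of the family members of other tissues, Gata4, a heart and endoderm factor, had an open end in no library. Gata5, Gata6 and the FOG2 gene Zfpm2 had one in all 8. At these family loci together, 34 of 60 regions were called in all 8. Among partners and opposing factors it was 143 of 242 regions. These 9 genes included Tal1 and Lmo2, which form a complex with GATA factors, and also Spi1 and Cebpa. Among targets such as Kit and Epor, receptors of stem cell factor and erythropoietin, it was 109 of 167. The partner Ldb1 had no open end in any library, and Fli1 had one in each library but through different regions. Gains and losses at these 469 regions were 10 and 11 in MUT T1 against WT T1 (2.13% and 2.35%, against 1.26% and 2.13% of all regions). They were 6 and 4 in MUT T2 against WT T2 (1.28% and 0.853%, against 3.95% and 0.457%) and 3 and 8 in MUT T1 against MUT T2 (0.64% and 1.71%, against 0.641% and 1.74%). In WT T1 against WT T2 they were 14 and 5 (2.99% and 1.07%, against 3.9% and 0.632%). Over all T1 against all T2 there was none (all regions 0.0507% and 0.0265%). Over all MUT against all WT they were 1 and 0 (all regions 0.222% and 0.0606%), the gain being at Spi1, which encodes the myeloid factor PU.1.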

How the data were processed

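ATAC-seq was done on 5000 nuclei per library, with transposition for 30 min at 37 °C, per the labels' protocols. Each library has its own deposited peak list, so the calls used here are per sample. Bowtie2, SAMtools, MACS2 and mm10 are named in the submitters' processing notes, without versions or settings, and any shift of cut sites is not given in these sources. The deposited lists hold, per peak, a fold enrichment (a ratio of summit to local background, each with 1 added, as MACS2 defines it) and −log10 p- and q-values, all as the authors' caller wrote them.

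For chromosomes 1 to 19 and X, peaks were merged at an overlap of at least 1 bp. Gene spans (RefSeq, GRCm38.p6) and start sites came from reference tables, which matched all 4 genes, and exons and introns were not analysed here. A region takes the highest peak of a library. Pileup and background were solved from these deposited values, leaving out peaks with a −log10 p-value above 300. The pileups were whole within 0.001 for at least 99.9972% of the peaks of a library. The limma package (3.58.1, R 4.3.3) was fitted to log2 ratios of the 49577 regions called in all 8 libraries, quantile normalized, 1 mean per group, empirical Bayes with a trend, and Benjamini-Hochberg adjustment over all of them. The scripts were tested on simulated data. Gain and loss have no test per region with 2 libraries a group.

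Regions are named by midpoint distance from the first start site of the gene. Those named in the text reach within 1 kb of a gene end, hold a listed Gata2 site, are among the 3 highest at a locus, or were gained or lost. Regions over or beside start sites, Gata2 +3.7 kb, Zfpm1 −6.9 kb and Zfpm1 −57.5 kb were added after the values were seen. The members and lists were chosen with earlier results of these data known. Alternatives were equal peak numbers, a stricter q-value, summit windows, a 50 kb window, other scalings, a filter on the ratio, a replicate block and leaving out each library. Leaving out the 3 shallow libraries was added after the data were seen.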

Additional observations from a re-analysis of the deposited data

Results flagged for a closer look

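At Gata2 −4.1 kb, WT T1 replicate 1 had a fold enrichment of 4.51 and stood below the other 3 WT libraries, which lay at 5.31 to 5.47. At Gata2 +9.5 kb, WT T1 replicate 1 had 5.26, above the other 3 T1 libraries at 4.69 to 4.78. At the Zfpm1 promoter (−0.6 kb), MUT T1 replicate 2, a shallow library, had 3.20 against 3.84 to 3.94 in the other 3 T1 libraries. Each gap passed Dixon's 95% critical value for 4 libraries. Chance alone gives about 1 such gap in 20 groups, and 48 groups were listed. Those with a missing call, at Gata2 +4.9 kb and the Gata3 start, could not be tested. The groups by genotype and by population share libraries, so they are not independent.

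The Gata2 +32.9 kb region (mean ratio 4.36 in the 4 libraries that called it) was called in opposite directions in the populations, in both WT T1 but no MUT T1 library, and in both MUT T2 but no WT T2 library. This difference was not tested, and none of the 3 shallow libraries called the region. With equal numbers of peaks both MUT T2 libraries and WT T1 replicate 1 called it. The T1 part of the pattern was then gone, and the T2 part was kept.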

How the results depend on the processing

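No alternative brought any of the 60 shared regions past the limma threshold. At 16 named shared regions 96 of 1140 alternative log2 differences had another sign than the main value, none past the threshold. Without scaling, the median of all shared regions moved to −0.14 in MUT T2 against WT T2 and −0.16 in WT T1 against WT T2. Deviations of same-numbered replicates correlated at 0.015 to 0.0741 between groups. The highest values were between T1 and T2 of a genotype (0.0741 in MUT and 0.0563 in WT). These values cannot show whether libraries of the same number came from the same mice. With the replicate block 0 of the 60 regions passed, and the 5 calls over all MUT against all WT became 0.

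Gains and losses together were 0 with equal peak numbers over all MUT against all WT. Within 50 kb, 60 regions remained in place of 93. With deep libraries only they were 8 in MUT T1 against WT T1 and 5 in MUT T1 against MUT T2. These were the same counts as without MUT T1 replicate 2. The pooled counts were 2 for MUT against WT T1 alone and 1 for T1 against MUT T2 alone. WT T2 had no deep library, so its own comparisons could not be made and the pooled ones mixed genotype and population. Leaving out 1 library gave 6 to 9 in MUT T1 against WT T1 (all regions 2.41% to 5.85% gained and 3.18% to 9.25% lost), 7 to 12 in MUT T2 against WT T2 (6.58% to 9.67% and 1.16% to 2.82%), 4 to 10 in MUT T1 against MUT T2 (1.62% to 4.65% and 2.86% to 8.55%), 6 to 9 in WT T1 against WT T2 (6.42% to 9.43% and 1.41% to 3.27%), 1 over all MUT against all WT and 0 over all T1 against all T2. Fewer libraries per group make each gain or loss easier to reach.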
